A study of Mus musculus with 12 samples.

Results

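Gata3, Stat6, Il4ra, Asb2, Akr1c18, March10, Fam198a, Il1rl1 and Nfil3 are 9 mouse genes linked to type 2 helper (Th2) cells, out of 23700 loci listed in each RNA library. They were picked by name with their levels in these libraries known, so their levels and differences are given as descriptions with no p-value. All samples came from CD4+ T cells of C57BL/6J mice, taken from spleen and lymph nodes and sorted as naive CD4+ cells. Induced regulatory (iTreg) cells lacking Bach2 (Bach2KO) and wild-type (WT) iTreg cells gave 3 RNA libraries each, after 3 days on plates coated with anti-CD3 and anti-CD28 antibody (10 μg/ml of each) with IL-2 (100 IU/ml) and TGF-β1 (5 ng/ml). WT cells polarized for the same time to Th2 (20 ng/ml IL-4, anti-IFN-γ), Th1 (20 ng/ml IL-12, anti-IL-4) or Th17 (20 ng/ml IL-6, 2 ng/ml TGF-β1, anti-IFN-γ and anti-IL-4), and fresh naive WT cells, gave 1 library each. The neutralizing antibodies were at 10 μg/ml, and no IL-4 or neutralizing antibody is recorded for the iTreg cultures. Bach2 binding was mapped by chromatin immunoprecipitation (ChIP) with an in-house rabbit antibody in 1 WT iTreg library, set against 1 input library. The labels give neither the part of Bach2 that was deleted nor whether the 3 libraries of a genotype came from separate mice or cultures, so standard errors and p-values measure only the spread between those libraries.

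Th2 cells arise when IL-4 binds its receptor, whose IL-4Rα chain, encoded by Il4ra, engages the transcription factor STAT6. STAT6 induces GATA3, the factor that opens the Il4, Il5 and Il13 cytokine genes and defines the lineage. Bach2 is a basic leucine zipper repressor that pairs with small Maf proteins on Maf recognition elements, whose core resembles the site of AP-1 factors.

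The Bach2 ChIP placed 34 peaks within 50 kb of 8 of the 9 loci, and none near March10. At least 1 peak within that distance was found for 64.5% of all loci and 84.5% of loci tested between genotypes, with a median of 2 per tested locus, so having a peak is not particular to these genes. A tag is an aligned ChIP read, and fold is the authors' ratio of ChIP tags to local background. The windows of 101 bases below, centred on peak summits and read 5′ to 3′ on the plus strand of mm9, come from the strongest peak inside the Il4ra, Asb2 and Fam198a loci, the Gata3 intron peak that holds the longer motif, the only peak near Akr1c18, and the peak of highest fold, which lies upstream of Il1rl1 and is shown as a contrast. Capitals mark the AP-1-type motif TGAGTCA on either strand (TGACTCA when it lies on the minus strand).
Il4ra intron, chr7:132698134-132698234: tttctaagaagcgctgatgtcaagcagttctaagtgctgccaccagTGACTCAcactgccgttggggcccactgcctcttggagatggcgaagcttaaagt
Asb2 intron, chr12:104579627-104579727: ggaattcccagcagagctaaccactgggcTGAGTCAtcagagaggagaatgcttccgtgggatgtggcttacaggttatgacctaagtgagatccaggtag
Gata3 intron, chr2:9782453-9782553: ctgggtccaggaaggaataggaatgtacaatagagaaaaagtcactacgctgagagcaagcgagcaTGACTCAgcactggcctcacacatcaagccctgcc
Fam198a intron, chr9:121871171-121871271: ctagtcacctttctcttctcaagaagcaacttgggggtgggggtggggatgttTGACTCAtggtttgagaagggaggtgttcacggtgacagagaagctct
Akr1c18 downstream, chr13:4128526-4128626: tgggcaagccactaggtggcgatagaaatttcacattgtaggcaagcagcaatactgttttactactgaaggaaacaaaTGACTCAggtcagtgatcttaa
Il1rl1 upstream, chr1:40450204-40450304: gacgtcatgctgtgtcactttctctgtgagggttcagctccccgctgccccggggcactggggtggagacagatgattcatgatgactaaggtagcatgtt

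The strongest of all 34 peaks lay in an intron of Il4ra (chr7:132697122-132699364, mm9). It held 389 tags at 33.45-fold enrichment, above 99.8% of the 22494 deposited peaks by tags. Its summit was 2.388 kb inside the gene's 5′ end and fell within the motif, whose first plus-strand base lay 4 bp away. A second peak in an Il4ra intron, 4.492 kb from the start, held 57 tags at 4.49-fold and no such motif. The other 5 peaks near Il4ra, between 36.649 and 53.674 kb downstream of its start, had Il21r, which encodes the IL-21 receptor, as the nearest protein-coding start.

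The Asb2 intron peak (chr12:104579124-104580001) had 149 tags at 38.65-fold, with the first base of the motif 21 bp from its summit. That summit lay 14.534 kb from the 5′ end of the locus as the files give it. The nearest annotated protein-coding start, also of Asb2, was 3094 bp away. Gata3 had 5 peaks, of which 3 lay inside the locus. The one over its 5′ end (chr2:9799370-9800369) had 88 tags at 18.59-fold and no motif within 150 bp of the summit, while the intron peak 17.724 kb into the gene (chr2:9782366-9782872) had 42 tags at 32.27-fold. At that intron peak the motif has TGC directly before its first base, read on the minus strand, a longer form that matches a Maf recognition element. Fam198a held an intron peak of 50 tags at 36.12-fold with the motif 3 bp from its summit (chr9:121871022-121871447).

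Nfil3 had 6 peaks, with 32 tags at 9.58-fold in its intron 1.283 kb from the start and 43 tags at 11.44-fold 1.842 kb upstream (chr13:53077795-53078541). Akr1c18 had 1 peak, of 12 tags at 17.7-fold, beyond its 3′ end and 21.301 kb from its start (chr13:4128475-4128679). The Il1rl1 upstream peak (chr1:40449895-40450550) reached 97.28-fold with 98 tags, above 99.6% of deposited peaks by fold, and lay 46.24 kb from the start of the locus as the files give it. The 2 peaks downstream of Il1rl1 had Il18r1 and Il18rap, the genes of the IL-18 receptor chains, as their nearest starts. None of the 4 peaks near Stat6 lay in the gene, and their nearest starts belonged to Lrp1, Nab2 and Tmem194.

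Over the 34 peaks the nearest protein-coding start was that of the listed gene for 16. Of the 9 genes 6 held a summit inside the locus, against 35.4% of loci tested between genotypes. The 9 include March10 and Il1rl1, which were not tested, and the loci were not matched by length, so the shares are not like for like. The motif lay within 150 bp of the summit in 14 of the 34 (41.2%), close to the 40.9% of all deposited peaks, and in 5.48% of windows moved 5 kb away. The longer form, with TGC before the motif on the same strand, was present at 2 of 34 (5.88%), against 6.96% of all peaks and 0.222% of the moved windows. These matches are included in those of the shorter motif.

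**Figure D1:**
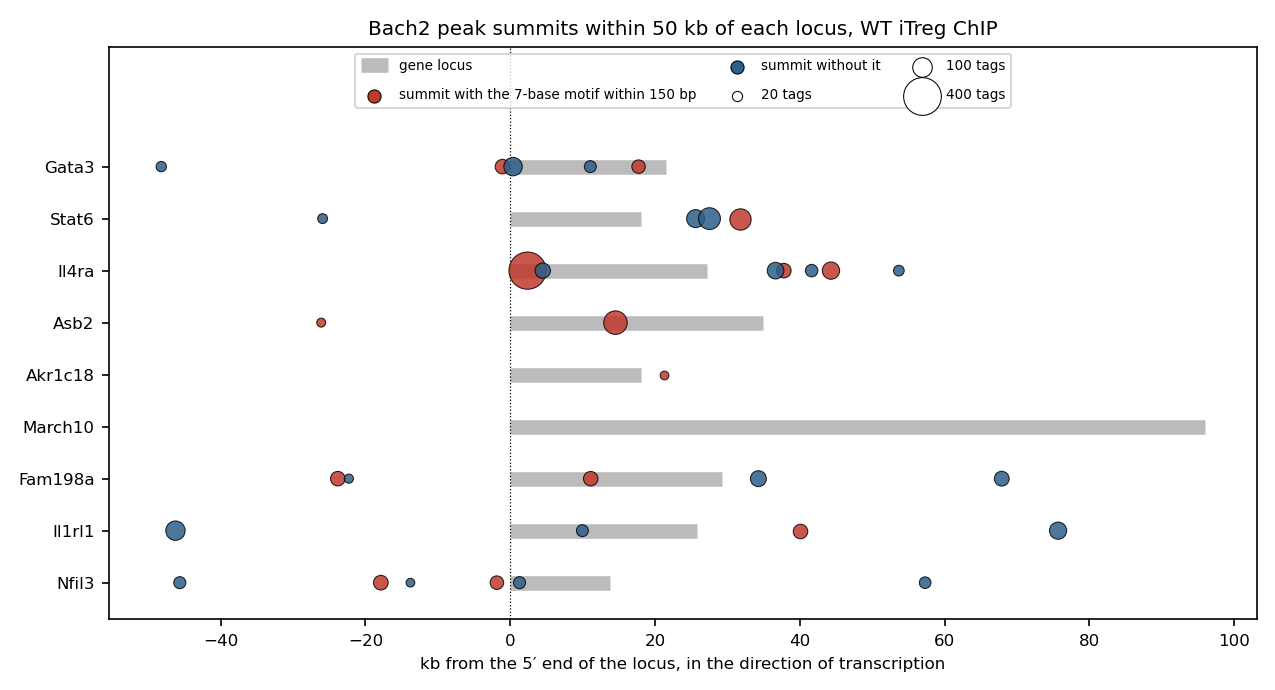
Bach2 peak summits within 50 kb of each locus in the WT iTreg ChIP library, by distance in kb from the 5′ end along the direction of transcription; grey bars are the loci, circle area grows with tags, and red circles have the AP-1-type motif within 150 bp. The largest circle, of 389 tags, is in Il4ra, and March10 has none.

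The promoter windows of RefSeq (build GRCm38.p6, 300 bases at each start) matched all 9 genes with 12 promoters, Fam198a and March10 under the names Gask1a and Marchf10. The palindrome known for STAT6, TTC and GAA with 4 bases of any kind between them, was in 0 of the 12 and in 6.95% of all 32851 promoters. A motif of GATA factors, AGATAA on either strand, was in 2 of the 12, both belonging to Il1rl1, against 11.2% overall. The AP-1-type motif was in 0 of the 12, against 5.2%. These are letter matches in short windows, and a window without a match says nothing on whether a factor acts there.

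The RNA values are FPKM, which scales reads by transcript length and library size, as the authors computed them. Bach2 itself checks the labels. It stood at 3.91, 3.39 and 4.12 FPKM in the Bach2KO iTreg libraries, against 17.9, 17.7 and 17.2 FPKM in WT (log2 difference -2.08 ± 0.0743 SE; limma adjusted p = 4.4e-06). Summed FPKM was between 545180 and 553890 in Bach2KO and between 432450 and 437850 in WT iTreg libraries, and reads implied by the deposited intervals were between 19.9 and 23.8 M in Bach2KO and between 18.1 and 19.0 M in WT. The 4 single libraries had between 12.3 and 18.3 M. With limma, 8566 of 11473 tested loci passed an adjusted p of 0.05, which is 74.7% (4709 higher and 3857 lower in Bach2KO). The balance depended on scaling. With quantile normalization 3731 were higher and 4875 lower, with the median log2 difference of all loci at -0.09, and with FPKM rescaled to equal sums 3283 were higher and 5419 lower, with that median at -0.18. Summed B cell markers were at 21.4, 14.4 and 20.3 FPKM in Bach2KO, against 75.1, 12.9 and 42.3 FPKM in WT, where the T cell markers summed to between 1322.7 and 1496.6 FPKM in Bach2KO and between 1702.5 and 1736.0 FPKM in WT. In bulk RNA, fewer cells that express a gene and less RNA per cell cannot be told apart.

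Il4ra (chr7:132695796-132722988, plus strand) encodes the receptor chain shared by IL-4 and IL-13. Its level was 159.8, 116.1 and 158.0 FPKM in the Bach2KO iTreg libraries, against 41.1, 42.9 and 42.7 FPKM in WT. All Bach2KO libraries lay above all WT libraries, with a log2 difference of 1.75 ± 0.127 (SE). The single libraries read 167.2 FPKM in Th2, 62.1 in Th1, 106.6 in Th17 and 62.9 in naive cells. The Bach2KO mean was 86.5% of the Th2 level and the WT mean 25.3%, so WT iTreg cells had the lowest level of the 6 conditions and Bach2KO iTreg cells the second highest. Naive and Th1 cells could not be separated by their deposited intervals. The difference was 1.49 with quantile normalization and 1.48 with equal sums.

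Stat6 (chr10:127080042-127098043, plus strand), which carries the signal of that receptor to the nucleus, was nearly level. It had 69.5, 72.4 and 71.4 FPKM in Bach2KO and 67.2, 64.9 and 68.3 FPKM in WT iTreg libraries. The groups did not overlap, but the log2 difference was 0.09 ± 0.0382 (SE), and the sign turned to -0.17 with quantile normalization and -0.18 with equal sums. Across conditions Stat6 ran between 54.4 FPKM in Th1 and 71.1 FPKM in Bach2KO iTreg cells. Bach2KO, WT, naive and Th2 cells formed a chain in which no neighbours were separated by their intervals. The ends of the chain were separated, with the lowest Bach2KO bound at 68.0 FPKM and the upper Th2 bound at 67.1 FPKM.

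Gata3 (chr2:9778705-9800227, minus strand), the lineage factor, had 18.5, 14.1 and 19.1 FPKM in Bach2KO and 8.96, 9.77 and 8.75 FPKM in WT iTreg libraries. Every Bach2KO library lay above every WT library, with a log2 difference of 0.87 ± 0.122 (SE), or 0.60 with equal sums. Th2 cells stood apart at 101.9 FPKM, against 9.77 in Th1, 5.31 in Th17 and 19.5 in naive cells. The Bach2KO mean was 16.9% of the Th2 level and the WT mean 8.99%. By deposited intervals the Bach2KO level was not separated from that of naive cells, nor the WT level from that of Th1 cells.

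Asb2 (chr12:104559352-104594211, minus strand) encodes the substrate-binding subunit of a cullin ubiquitin ligase whose known targets include filamins. It was near 0 in WT iTreg libraries and nearer to the Th2 level without Bach2. Bach2KO libraries had 14.4, 9.83 and 19.6 FPKM, and WT libraries 0.369, 0.130 and 0.174 FPKM. The log2 difference was 4.35 ± 0.260 (SE), and between 3.63 and 5.52 as the pseudocount changed. Th2 cells had 21.4 FPKM, Th1 4.70, Th17 0.351 and naive cells 0.0117. The Bach2KO mean was 68.4% of the Th2 level. By the range of their bounds Bach2KO and Th2 cells were not separated, but only Bach2KO replicate 3 reached the Th2 interval. WT iTreg and Th17 cells were not separated either.

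Nfil3 (chr13:53062578-53076408, minus strand) encodes a basic leucine zipper repressor, also called E4BP4, known for its part in the circadian clock and in NK and helper T cells. It had 17.7, 10.1 and 21.8 FPKM in Bach2KO and 1.03, 0.685 and 1.05 FPKM in WT iTreg libraries, without overlap (log2 difference 3.52 ± 0.286 SE). Th2 cells had 157.6 FPKM, Th1 49.3, Th17 14.7 and naive cells 6.05. WT iTreg cells were thus lowest of all 6 conditions, and the Bach2KO mean, 10.5% of the Th2 level, was not separated from Th17 cells.

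Akr1c18 (chr13:4131873-4149877, minus strand) encodes 20α-hydroxysteroid dehydrogenase, which inactivates progesterone. It had 6.11, 11.3 and 6.39 FPKM in Bach2KO and 2.61, 2.90 and 1.66 FPKM in WT iTreg libraries. The groups did not overlap and the log2 difference was 1.52 ± 0.279 (SE). Th2 cells reached 162.0 FPKM, 36.6-fold over Th1, while Th17 had 3.56 and naive cells 0.151 FPKM. The Bach2KO mean was 4.91% of the Th2 level, and Bach2KO, Th1, Th17 and WT cells formed a chain in which no neighbours were separated. Its paralogs Akr1c12 and Akr1c13 lie in the same gene family. The values come from unique reads, so reads that fit several of these genes would be left out. Akr1c12 was also higher, at 8.95, 6.59 and 7.54 FPKM in Bach2KO and 2.59, 1.95 and 2.40 FPKM in WT (log2 difference 1.54 ± 0.137 SE; limma adjusted p = 1.3e-04). It stood at 19.9 FPKM in Th2 cells.

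Fam198a (chr9:121860106-121889326, plus strand) encodes a Golgi-associated kinase-like protein. It had 2.41, 1.28 and 1.86 FPKM in Bach2KO and 0.00925, 0.0498 and 0.0119 FPKM in WT iTreg libraries. No values overlapped, and the log2 difference of 2.14 ± 0.192 (SE) ran between 1.46 and 3.95 with the pseudocount. Th2 cells had 22.7 FPKM, Th1 0.245, naive 0.0450, and in Th17 cells it was listed at 0. The Bach2KO mean was 8.13% of the Th2 level.

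March10 (chr11:105222112-105318049, minus strand) encodes a membrane-associated RING-CH ubiquitin ligase. It was listed at 32.6 FPKM in the Th2 library, at 0.0164 in Th1, and at 0 in all 6 iTreg libraries, Th17 and naive cells. It is the gene of the set with no Bach2 peak within 50 kb. Il1rl1 (chr1:40496494-40522259, plus strand) encodes ST2, the IL-33 receptor carried by many tissue Th2 and regulatory T cells, yet it was close to 0 throughout. It had 0.166, 0.327 and 0.122 FPKM in Bach2KO and 0.0602, 0.0711 and 0.0621 FPKM in WT iTreg libraries, and 0.00954 in Th2, 0.0184 in Th17, 0.00597 in naive and 0 in Th1. The groups did not overlap, but the deposited intervals of every neighbouring pair did. March10 and Il1rl1 lay under the minimum mean of 0.5 FPKM and were not tested.

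**Figure D2:**
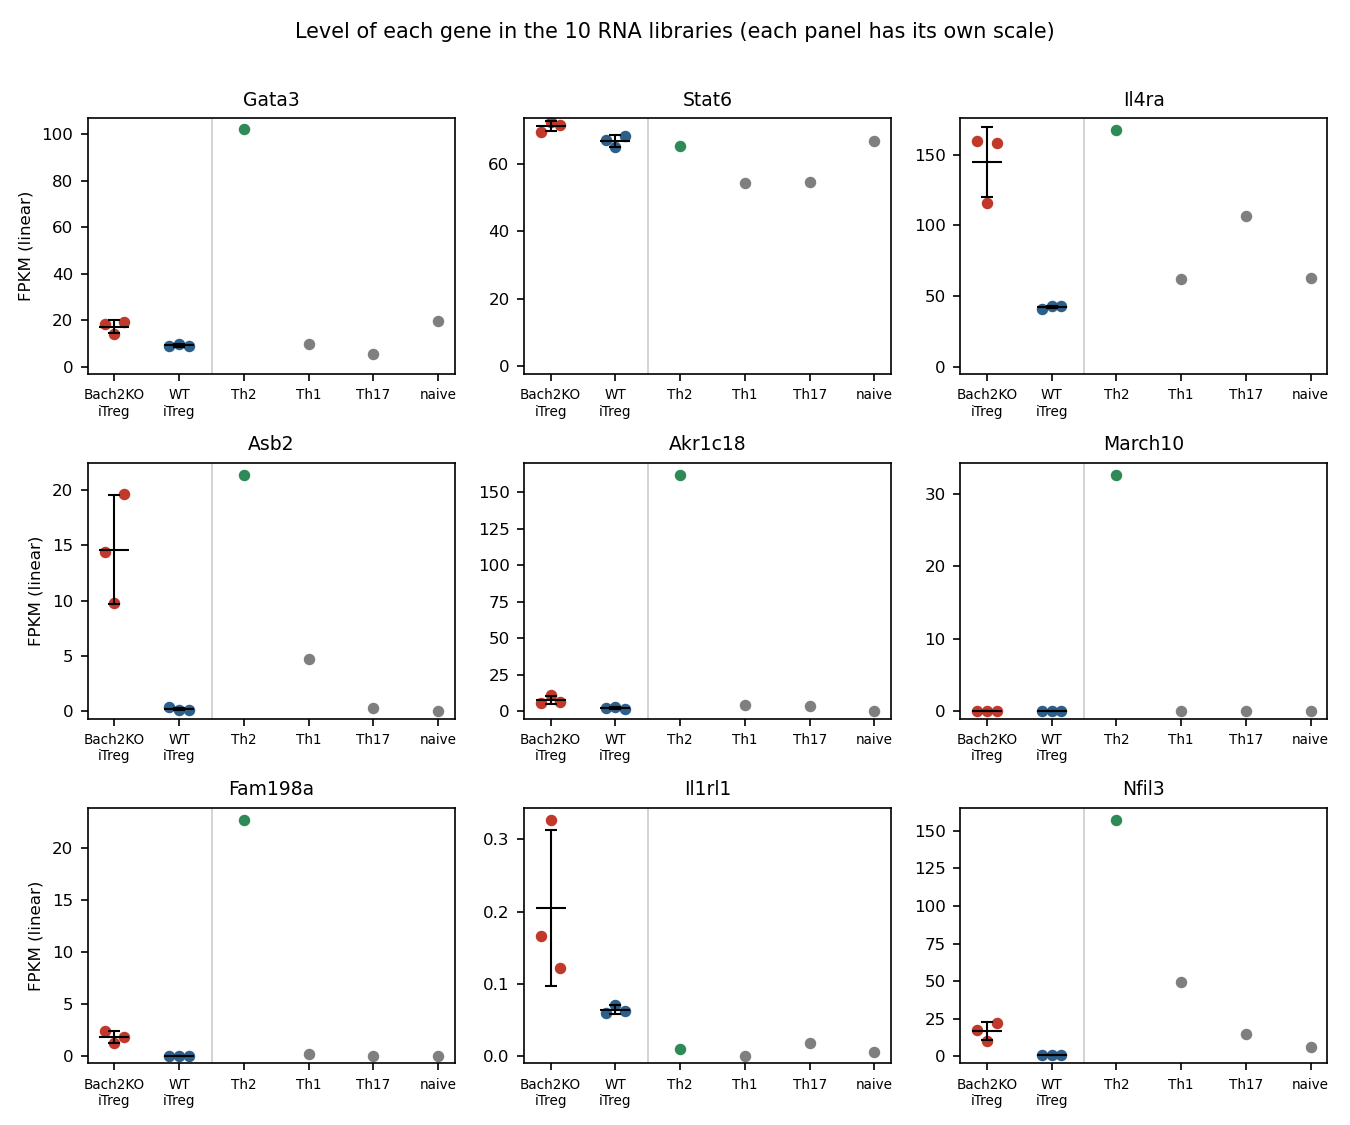
FPKM of each gene in the 10 RNA libraries, on linear axes of their own; points are libraries and black bars the mean ± SD of 3 iTreg libraries. Th2 is highest of the single libraries for 7 genes, and the Bach2KO iTreg means of Il4ra and Asb2 are at 86.5% and 68.4% of the Th2 level.

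Of the 9 genes 7 passed the minimum level, Asb2 and Fam198a only through the Bach2KO libraries. Among them 6 were called higher and 0 lower, where 41% of all tested loci were called higher. Bach2KO and WT libraries did not overlap for 8 of 9 genes, against 79.4% of tested loci and 60% of loci above 0 in an iTreg library. The Th2 library was the highest of the 4 single ones for 7 of 9 genes, against 24% of the loci at 2 FPKM or more in 1 of them, a level that Il1rl1 did not reach. Because these differences chose the genes, nothing follows from those counts. Bach2KO replicate 2 was the lowest of its group for 5 of the 6 genes called higher, namely Gata3, Il4ra, Asb2, Fam198a and Nfil3, and the highest for Akr1c18. It was lowest for 29.3% of all loci called higher. Leaving it out moved the differences of none of the 7 tested genes to the other side of 0, and the ranges over single libraries left out are drawn with the differences.

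**Figure D3:**
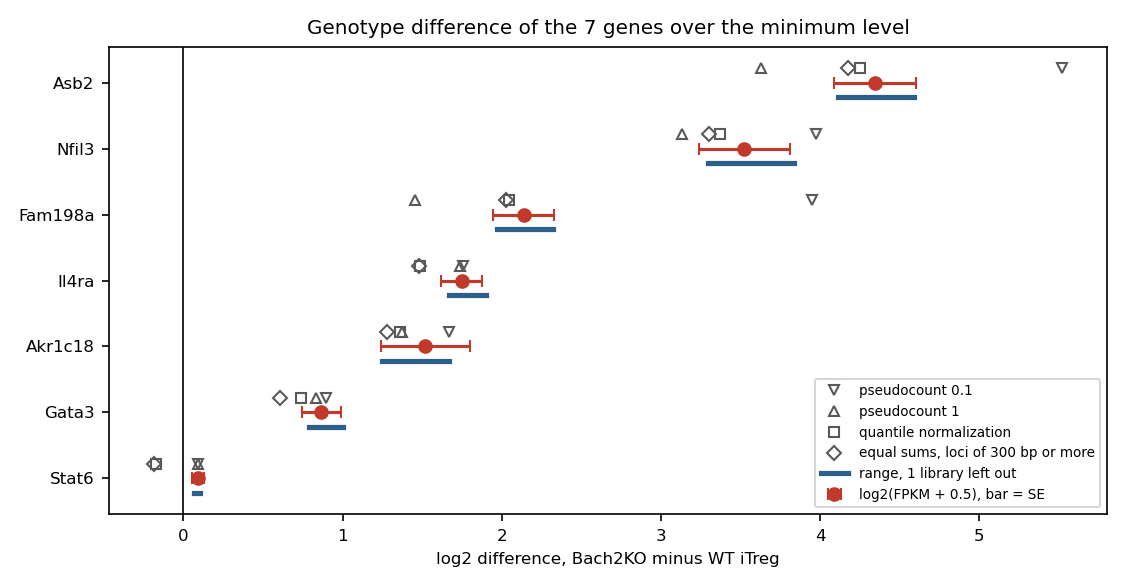
Log2 difference of Bach2KO minus WT iTreg libraries for the 7 tested genes; red points and bars are the difference and its SE on log2(FPKM + 0.5), blue lines span the values with 1 library left out, and open symbols are other pseudocounts and scalings. Of these 7, only Stat6 changes sign, to -0.17 and -0.18.

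A locus was called Th2-restricted when its Th2 level was at least 2-fold above Th1, Th17 and naive on the log2(FPKM + 0.5) scale, and it was at 2 FPKM or more in 1 of these libraries, which held for 205 of 10786 loci over that level (1.9%) and for 6 of the 9 genes. Among the 160 of them at least 300 bp long, a limit set after seeing that microRNA loci led the list, March10, Akr1c18 and Fam198a held ranks 1, 2 and 3 by excess in Th2, with log2 excess of 6.00, 5.04 and 4.96. Gata3 was at 33, Asb2 at 50 and Nfil3 at 68. By the Bach2KO minus WT difference the order was Asb2 at 4, Nfil3 at 10, Fam198a at 40, Akr1c18 at 64, Gata3 at 89 and March10 at 131. March10 is listed at 0 in every iTreg library, which fixes its difference at 0, and the places of Fam198a and Asb2 depend on the pseudocount, so this order is a description at a pseudocount of 0.5.

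**Figure D4:**
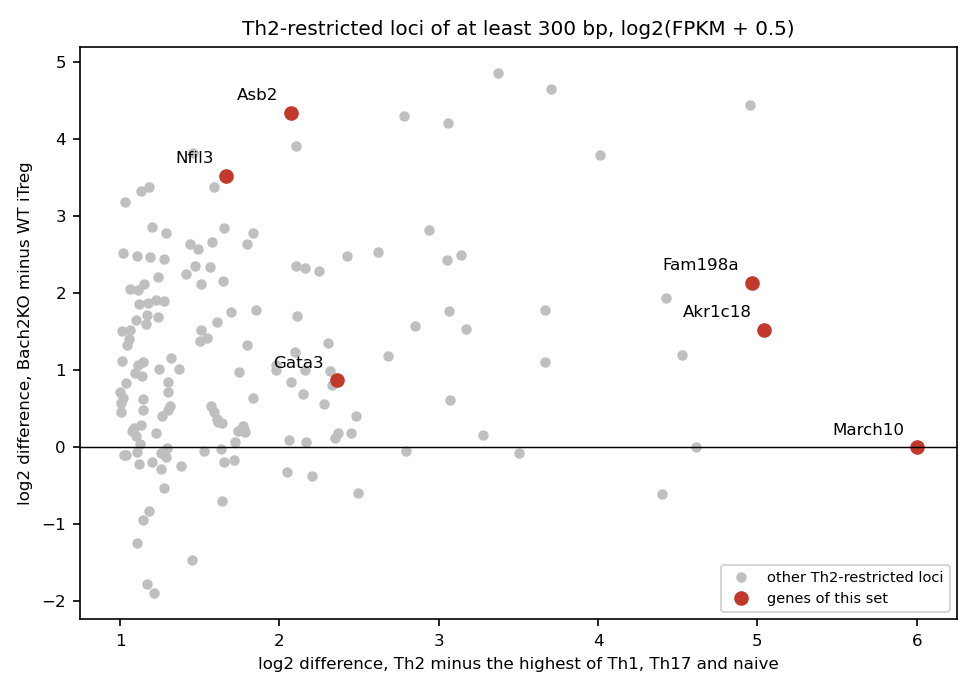
The 160 Th2-restricted loci of at least 300 bp, by log2 excess of Th2 over the highest of Th1, Th17 and naive libraries and by log2 difference of Bach2KO minus WT iTreg libraries. March10 lies farthest right at a difference of 0, and Asb2 and Nfil3 lie high at a lower excess.

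The genes most alike in pattern were sought among 9673 loci by Pearson correlation of log2(FPKM + 0.5) over the 10 libraries, as a description. These points share the single Th2 library and the 3 libraries of each genotype. Gata3 was closest to Epas1 (r = 0.952), Tmem64 and Mboat1. Epas1, the gene of the hypoxia factor HIF-2α, had 15.2 FPKM in Th2, 2.63 in naive, 1.06 in Th1 and 0.190 in Th17 cells. Il4ra was closest to Adk (r = 0.971), Sept8 and Socs1. Sept8 averaged 4.96 FPKM in Bach2KO and 0.391 FPKM in WT iTreg libraries, with 6.70 in Th2. Nfil3 was closest to Hjurp (r = 0.991), Alkbh5 and Net1, Asb2 to Ccdc21 (r = 0.982), Cenpo and Galns, and Akr1c18 to Tarbp2 (r = 0.982), Sclt1 and Tes. Stat6 was closest to Pik3cd (r = 0.960), Grap and Mllt6, Fam198a to F2rl2 (r = 0.962), Tmem64 and Tarbp2, and Il1rl1, whose own values are near 0, to Ampd2 (r = 0.978), Mtx1 and Zmiz2. March10 was closest to Mir92-2, Mir3096 and Mir3063, which are listed only in Th2, and among 9388 loci of at least 300 bp to Adamtsl3, Efna5 and Tanc2.

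The genes around these 9 were read from 6 lists of 161 symbols that leave the 9 out, of which 115 were tested. Of those, 63 were higher and 31 lower in Bach2KO iTreg cells, where 41% of all tested loci were higher and 33.6% lower. The median log2 difference was 0.33, against 0.07 over all loci tested. Of the 115, 11 had a WT mean under 0.5 FPKM and were tested only through the Bach2KO libraries, so they had to be higher there. With quantile normalization 55 listed genes were higher and 41 lower, and with equal sums 49 were higher and 46 lower.

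The IL-4 receptor and STAT6 signalling list went both ways, with 11 of 19 tested genes higher and 7 lower and a median of 0.29. Genes of several feedback inhibitors rose. Socs1, which blocks JAK kinases, had 161.6, 181.2 and 140.6 FPKM in Bach2KO and 14.8, 15.5 and 16.1 FPKM in WT (log2 difference 3.33 ± 0.0959 SE; limma adjusted p = 2.3e-06). Cish, a STAT-induced inhibitor, averaged 211.8 ± 19.7 FPKM in Bach2KO and 30.3 ± 2.51 FPKM in WT (SD, n = 3 each; limma adjusted p = 3.2e-06), and Ptpn6, the phosphatase SHP-1, rose by 1.18. Jak1, the kinase bound to IL-4Rα, fell to 106.9 ± 6.97 FPKM in Bach2KO, against 227.5 ± 13.7 FPKM in WT (limma adjusted p = 3.2e-05). Socs5, an inhibitor of IL-4 signalling, was not called, at a log2 difference of -0.14, but was called lower with quantile normalization (-0.32) and equal sums (-0.38). With equal sums the genes called higher in this list came down to 6.

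Of 29 tested GATA3 partners and Th2 transcription regulators 19 were higher and 6 lower, with a median of 0.50. Bhlhe40, a helix-loop-helix repressor, averaged 70.4 ± 5.00 FPKM in Bach2KO and 10.3 ± 0.588 FPKM in WT (log2 difference 2.71; limma adjusted p = 1.7e-06). Rbpj, the nuclear effector of Notch, rose by 2.47, and the AP-1 genes Junb and Jund by 2.29 and 1.74. JunB activates Il4 in Th2 cells. Maf, Tcf7 and Bcl6 were among the 6 genes called lower, at log2 differences of -1.65, -1.48 and -1.35. Tbx21, the gene of T-bet, which opposes GATA3, was also on the list and called higher, but with a WT mean of 0.107 FPKM it was tested only through the Bach2KO libraries. Ikzf1 and Satb1 were not called (log2 differences 0.06 and 0.21), but without Bach2KO replicate 2 both were called higher, at 0.11 and 0.47, and Ikzf1 was called lower, at -0.21, with either other scaling. With equal sums 10 genes of this list were called lower.

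Of 17 tested Th2 cytokine and surface genes 13 were higher and 2 lower, with a median of 2.25. Of these 17, 9 had a WT mean under 0.5 FPKM and were tested only through the Bach2KO libraries, so they had to be higher there. The median over the other 8, a split made after the values were seen, was 0.56. Il4, Il13 and Epas1 are among these 9, so the direction of their differences was fixed by the minimum level. Il4 had 13.5, 6.70 and 14.4 FPKM in Bach2KO libraries and 0, 0 and 0.0810 FPKM in WT (log2 difference 4.44 ± 0.286 SE; limma adjusted p = 3.4e-05). Il13 had 15.6, 6.65 and 16.8 FPKM in Bach2KO and was listed at 0 in all WT libraries, and its Th2 level was 6.02 FPKM. Il4 stood at 18.6 FPKM in Th2 cells. For both cytokines Bach2KO replicate 2 was again lowest. Ccr4, a chemokine receptor of Th2 and regulatory cells, averaged 80.2 ± 8.69 FPKM in Bach2KO and 11.2 ± 0.907 FPKM in WT (limma adjusted p = 4.2e-06), and Ccr8 rose by 0.65. Il17rb and Epas1 were not called, but without Bach2KO replicate 2 both were, at 0.70 and 1.16, against 0.47 and 0.81 with all libraries.

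Of 15 tested IL-33 receptor signalling genes 5 were higher and 7 lower, with a median of -0.17. Over all tested loci 41% were higher and 33.6% lower, with a median of 0.07. Il18rap, a chain of the IL-18 receptor, averaged 6.55 ± 0.775 FPKM in Bach2KO and 1.18 ± 0.361 FPKM in WT (log2 difference 2.09; limma adjusted p = 8.8e-05). The adaptor gene Myd88 and the ligase gene Traf6 rose by 0.39 and 0.49. Irak3, an inhibitor in this pathway, fell to 0.355 ± 0.0340 FPKM in Bach2KO, against 1.06 ± 0.167 FPKM in WT. Its Bach2KO mean is under 0.5 FPKM, so it was tested only through the WT libraries and had to be lower in Bach2KO. Il1rap, the co-receptor of ST2, and Irak1 were not called with the authors' scaling. Both were called lower with quantile normalization (-0.52 and -0.14) and equal sums (-0.54 and -0.24), and Il1rap also without Bach2KO replicate 2 (-0.44). With equal sums 3 genes of this list were called higher.

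Of 10 tested ASB2 ligase partners and substrates 7 were higher and 1 lower, with a median of 0.54. Tceb1 and Tceb2, the elongins that join ASB2 to its cullin, rose by 0.94 and 0.88, and Skp2, an F-box protein gene, averaged 4.52 ± 0.526 FPKM in Bach2KO and 0.958 ± 0.0798 FPKM in WT (limma adjusted p = 2.0e-05). Ndfip1, an activator of Itch-family ligases, rose by 0.72. The cullin gene Cul5 and the ligase gene Itch were not called with the authors' scaling. With equal sums both were called lower, at -0.28 and -0.41, and Itch also with quantile normalization (-0.28) and without Bach2KO replicate 3 (-0.18). With equal sums 3 genes were called lower.

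Of 25 tested near relatives of the 9 genes 8 were higher and 8 lower, near the 41% and 33.6% of all tested loci, with a median of -0.08. Dbp and Tef, PAR-type leucine zipper genes that act on the same DNA elements as NFIL3 with opposite effect, fell. Dbp had 8.61, 7.68 and 8.96 FPKM in Bach2KO and 66.5, 68.6 and 65.6 FPKM in WT (log2 difference -2.92 ± 0.0630 SE; limma adjusted p = 1.2e-06), while Tef fell by 1.66. Among STAT genes Stat2 rose by 0.90, and Stat4 was not called, except without Bach2KO replicate 2, at 0.62. March5 was called lower only with quantile normalization (-0.28) and equal sums (-0.38). With equal sums 14 of these relatives were called lower.

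**Figure D5:**
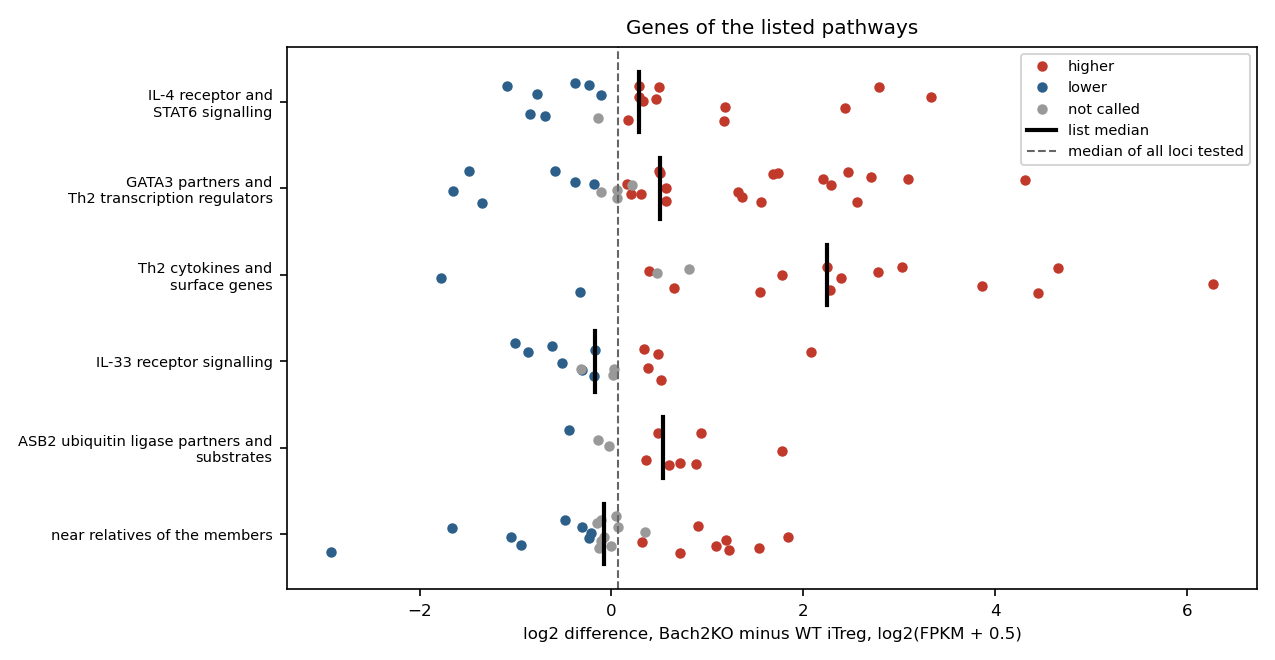
Log2 difference of Bach2KO minus WT iTreg libraries for the tested genes of each list; red and blue points passed the limma threshold and grey points did not, black bars are list medians and the dashed line the median of all loci tested. The median of Th2 cytokine and surface genes, 2.25, includes 9 genes tested only through the Bach2KO libraries and is 0.56 over the other 8.

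Markers of other cells that carry Th2 genes were measured beside these lists. Of 15 mast cell and basophil markers 14 were under 1 FPKM in every iTreg library, Gata1 being the exception, and 8 were at 0, and their sums were between 2.84 and 4.20 FPKM in Bach2KO and between 3.23 and 3.79 FPKM in WT. Of 7 tested innate lymphoid (ILC2) markers, several of which activated T cells also express, 4 were higher and 1 lower, with Il2ra and Id2 among the higher. Of 7 tested B cell markers 0 were higher and 2 lower, and of 7 tested T cell markers 0 and 4. Among all tested loci 41% were called higher and 33.6% lower. Of 5 tested myeloid and MHC class II markers 0 were higher and 2 lower, and the list summed to between 142.4 and 165.0 FPKM in Bach2KO and between 34.4 and 224.7 FPKM in WT. Of the CD8 and NK markers 2 were tested and higher, of which Cd8a, at 2.23 FPKM in Bach2KO and 0.0925 FPKM in WT, was tested only through the Bach2KO libraries. The part of B cell, myeloid and CD8 or NK transcripts in the differences above was not tested.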

How the data were processed

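RNA was measured in 10 libraries and Bach2 ChIP in 1 library with 1 input. The deposited FPKM values were made by the authors with TopHat and Cufflinks from unique 50-bp reads mapped to mm9, per the labels' protocols. Versions of these tools, and the annotation behind the loci, were not given in the sources used here. Peaks were called with MACS 1.4.0beta from 8992019 ChIP tags and 9999999 input tags at a p-value cutoff of 1e-05, per the file headers. The tag count, the score, the fold (a ratio) and the percent FDR of each peak are the authors' own values, per the file headers. Input tags enter only through these peak values. Libraries were joined by symbol and locus. Locus starts were counted from 0 in the files and are printed from 1, and strand and exons came from the annotation of NCBIM37, the same build.

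The 3 Bach2KO and 3 WT iTreg libraries entered a linear model in limma 3.58.1 under R 4.3.3 (lmFit, then eBayes with a mean trend) on log2(FPKM + 0.5), for the 11473 loci with a mean of at least 0.5 FPKM. Tests were two-sided with Benjamini-Hochberg adjustment and a threshold of 0.05. On this scale changes of genes near 0 are understated. The fit was tested on simulated data. The single libraries were not tested. Levels of neighbouring conditions were called not separated where the deposited confidence bounds, or the range of bounds over 3 replicates, overlapped. Reads implied by those bounds cover counting error only.

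The 9 genes and the gene lists were chosen with earlier results of these data known. Named list genes are up to 4 called genes per list by smallest adjusted p and up to 2 uncalled by highest mean, with the 9 genes and Bach2; 1 gene under this rule is not reported here. Akr1c12, Akr1c13, Tbx21, Maf, Tcf7, Bcl6, Il2ra, Id2, Cd8a, Il18r1, Ecm1, Il9, Tanc2, Mrc2 and Tlk2 were named after their values were seen. The Tbx21, Maf, Tcf7, Bcl6, Il2ra and Id2 calls come from the same fit.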

Additional observations from a re-analysis of the deposited data

How the results depend on the processing

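Directions of the 6 genes called higher held under other pseudocounts, no filter, quantile normalization, equal sums, the replicate block and each library left out. With pseudocounts of 0.1 and 1 the log2 difference was 5.52 and 3.63 for Asb2 and 3.95 and 1.46 for Fam198a, and with 0.1 it was 3.97 for Nfil3. With quantile normalization and equal sums it was 1.49 and 1.48 for Il4ra and -0.17 and -0.18 for Stat6, and with equal sums 0.60 for Gata3. Equal sums gave Th2 excess of 1.89 for Gata3, -0.50 for Stat6 and 0.51 for Il4ra. Equal sums also gave 6 higher IL-4 receptor genes, 10 lower GATA3 partners, 3 higher IL-33 receptor genes, 3 lower ASB2 genes (2 with quantile normalization, between 1 and 2 with a library left out) and 14 lower near relatives. Ikzf1 turned to -0.21 under both scalings, Satb1 to -0.052 and -0.062, and Irak1 to -0.14 and -0.24. With a library left out Irak1 ran between -0.008 and 0.057, lowest without Bach2KO replicate 2, and Cul5 between -0.07 and 0.025, highest without Bach2KO replicate 3. Of 35 named list genes 24 kept their call and direction in all settings. Windows of 10 and 100 kb gave 16 and 54 peaks. The cause of these moves was not tested.

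Bach2KO and WT libraries share replicate numbers. Deviations of same-numbered libraries correlated at -0.04, -0.04 and 0.01, so no shared deviation was seen. Libraries made as pairs need not deviate together, so this cannot tell whether the numbers pair them. With the replicate block 4346 loci were higher and 3540 lower. The 4 single libraries, the single ChIP library and genes near 0 FPKM limit precision.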

Other observations

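Tanc2, the next listed gene beyond the 5′ end of March10 and 133.25 kb from it on chromosome 11, shared its restriction to the Th2 library. Tanc2, which encodes a scaffold protein, had 48.5 FPKM in Th2 cells, against 1.82 in Th1, 0.776 in Th17 and 0.384 in naive cells. It averaged 0.184 FPKM in Bach2KO and 0.544 FPKM in WT iTreg libraries. On the other side Mrc2, 9.653 kb from March10, was at 0.0581 FPKM in Th2 and 0.0590 in Th1 cells, and Tlk2, 76.842 kb away, at 10.0 FPKM in Th2 and 11.3 in Th1 cells. This neighbourhood was looked at after the values were seen, in 1 Th2 library, and was not tested.

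Il18r1 and Il18rap, which follow Il1rl1 on chromosome 1 and each have a Bach2 peak at or near them, went opposite ways. Il18r1 fell to 35.5 ± 9.26 FPKM in Bach2KO, against 53.6 ± 2.91 FPKM in WT iTreg libraries (SD, n = 3 each; limma adjusted p = 0.0191), while Il18rap was higher. In the Th2 library Il18rap was listed at 0 and Il18r1 at 0.124 FPKM.

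Ecm1, a Th2-linked surface list gene at 213.0 FPKM in Th2 cells, fell to 15.8 ± 0.876 FPKM in Bach2KO, against 20.0 ± 1.12 FPKM in WT iTreg libraries (limma adjusted p = 0.0035). Il9 was called higher, with 59.7, 20.7 and 73.7 FPKM in Bach2KO, against 0, 0.194 and 0.0929 FPKM in WT, and 0.140 FPKM in Th2 cells. With a WT mean of 0.0958 FPKM, Il9 was tested only through the Bach2KO libraries, so it had to be higher there.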
